A study of Mus musculus with 3 samples.

Results

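The 10 genes described here encode brakes on MAP kinase signalling: the MAP kinase phosphatases Dusp1, Dusp2, Dusp4, Dusp5, Dusp6 and Dusp10, the Sprouty proteins Spry1 and Spry2, and their relatives Spred1 and Spred2. They were chosen by symbol, through the gene identifiers of the deposited tables, and are 10 of 50600 genes counted. In the Th1 libraries Dusp4, Dusp2 and Dusp5 stood far above the rest, at a mean of 50.7 to 89.5 TPM. TPM is here a length-scaled share of a library's counts on the strand that was counted, which may not be that of the mRNA. Spry2 was close to the counting floor.

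MAP kinases such as ERK, JNK and p38 are switched on by phosphorylation of a threonine and a tyrosine, and dual-specificity phosphatases switch them off by removing both phosphates. Many of these phosphatase genes are themselves induced by MAP kinase activity, so they close a negative feedback loop. Sprouty and Spred proteins act upstream, where they damp the passage of the signal from receptors through Ras to Raf. In T cells the ERK branch is driven by the T-cell receptor.

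The cells were T-helper 1 (Th1) primary cells, the interferon gamma producing fate of CD4 T cells, from the mouse strain C57BL/6NJ. The file headers carry the words 72 hours and sorted, and a differentiation protocol is linked but not quoted. Age is given as unknown and no treatment is named. The labels call the assay total RNA, but the title of the library protocol they link names poly(A)+ RNA. The 3 libraries are biological replicates 1, 2 and 3 of a single group with 1 shared donor record. Whether they came from separate cultures or animals is not stated, so their spread may be in part technical. There is no second condition, and every comparison below is between genes or between libraries.

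Replicate 2 was shallow, with 266790 counts against 4482916 in replicate 1 and 3733531 in replicate 3, and the 10 genes summed to 1386, 114 and 872 counts in replicates 1, 2 and 3. In replicate 2 a level of 3 counts already equals 3.42 to 11.6 TPM for these genes. Each pair of libraries differed beyond sampling noise, with a chi-square of at least 5.27 per degree of freedom, and they were kept as 3. All 6 CD4 T-cell and Th1 markers were counted. Ifng had 604 ± 252 TPM, Cd4 174 ± 53.5 and Tbx21, the Th1 transcription factor T-bet, 70.5 ± 22.1 (SD, n = 3). Trac had 222 ± 81.3 TPM and Il12rb2 140 ± 43.7. Cd3e was uneven, with 292, 1 and 157 counts, or 34.2, 1.90 and 18.9 TPM, in replicates 1, 2 and 3. Both Il12rb2 and Cd3e face an exon on the other strand. Of 13 markers of other cell types, 8 had 0 counts in every library, among them Cd8a, Ms4a1, Lyz2, Adgre1, Ncr1, Pf4 and Hbb-bs, and 2 reached 1 TPM, the B-cell gene Cd79a at 8.23 ± 4.00 and the endothelial gene Pecam1 at 4.58 ± 1.46. The summed level of the 13 markers was 10.2, 16.8 and 15.8 TPM in replicates 1, 2 and 3, and their part in the results was not tested.

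What a count means here depends on strand. The counting used 1 strand only, and on the mitochondrial genome mt-Nd6, the light-strand gene, had 5.09, 9.12 and 8.07 times the counts per base of the heavy-strand gene mt-Co1 in replicates 1, 2 and 3. Levels below belong to the strand that was counted, and whether that is the strand of the mRNA or its opposite was not tested. Overlapped genes, those facing an exon on the other strand, held 51.7%, 55.1% and 66.5% of the counts. By number, 8189 of all 50600 genes (16.2%) were overlapped, so most genes had no such overlap. Of the 10 genes, 9 had none, and 0 had an overlap on their own strand. The exception was Spry1, where 710 of 2906 exon bases face Gm42922, a transcript awaiting experimental support, with 45, 5 and 75 counts in replicates 1, 2 and 3.

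The phosphatases are paralogs, and the codons of their catalytic signature are shown because they encode the active site that defines the family. Each line gives 24 coding bases from GENCODE release 21 transcripts, 5′ to 3′, with the codons of the histidine and the catalytic cysteine and of the arginine 6 residues after the cysteine in capitals.
Dusp1: CATTGCcaggccggcatctccCGG
Dusp2: CACTGCcaagctggcatctctCGC
Dusp4: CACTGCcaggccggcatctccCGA
Dusp5: CACTGCgaagctggggtttccCGG
Dusp6: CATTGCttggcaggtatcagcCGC
Dusp10: CACTGCcaggccggcgtgtccCGA
Against Dusp4, the signature of Dusp1 and that of Dusp10 differed at 2 of 24 bases each, that of Dusp2 at 4, that of Dusp5 at 7 and that of Dusp6 at 8. No window was identical between Dusp4 and another gene of the family, and the counting command in the headers does not include the option for reads that map to several places. A window of 24 bases cannot show whether reads from the rest of these transcripts map to several places, which was not tested.

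Promoters were compared because the inducible genes among these phosphatases are known early response genes. The RefSeq promoters used here (GRCm38.p6) matched 9 of the 10 genes, and that of Dusp4 was not analysed here. Starts are those of RefSeq, which for Dusp1, Dusp5, Dusp10 and Spred2 lie inside the GENCODE gene bounds given below. For Dusp10 all 250 bases before the start lie inside those bounds. The 250 bases before the start are printed for Dusp2 and Dusp5, at the high end of the levels, and for Dusp1 and Dusp6, at the low end. Capitals mark the motifs found on either strand: the cAMP response element TGACGTCA and its core letters TGACG, the CArG box bound by serum response factor, the GC box GGGCGG and the E box CACGTG. The core letters lie within the full element, and where motifs overlap or touch the capitals run together.
Dusp2, chr2:127335909-127336158, plus strand: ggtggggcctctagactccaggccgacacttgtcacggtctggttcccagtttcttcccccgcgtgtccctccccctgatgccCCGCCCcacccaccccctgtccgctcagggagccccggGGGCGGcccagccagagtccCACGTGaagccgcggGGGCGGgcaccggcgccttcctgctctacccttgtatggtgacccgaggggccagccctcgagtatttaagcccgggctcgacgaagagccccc
Dusp5, chr19:53528895-53529144, plus strand: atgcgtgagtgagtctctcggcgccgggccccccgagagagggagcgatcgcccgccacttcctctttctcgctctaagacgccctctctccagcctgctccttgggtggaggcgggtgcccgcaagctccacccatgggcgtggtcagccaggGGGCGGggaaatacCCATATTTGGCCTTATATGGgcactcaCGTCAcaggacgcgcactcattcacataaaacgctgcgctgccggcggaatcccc
Dusp1, chr17:26508473-26508722, minus strand: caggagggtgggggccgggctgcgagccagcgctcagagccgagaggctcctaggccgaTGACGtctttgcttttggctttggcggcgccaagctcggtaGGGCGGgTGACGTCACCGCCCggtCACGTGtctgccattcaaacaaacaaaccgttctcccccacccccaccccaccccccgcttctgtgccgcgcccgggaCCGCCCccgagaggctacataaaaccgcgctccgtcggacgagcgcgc
Dusp6, chr10:99262981-99263230, plus strand: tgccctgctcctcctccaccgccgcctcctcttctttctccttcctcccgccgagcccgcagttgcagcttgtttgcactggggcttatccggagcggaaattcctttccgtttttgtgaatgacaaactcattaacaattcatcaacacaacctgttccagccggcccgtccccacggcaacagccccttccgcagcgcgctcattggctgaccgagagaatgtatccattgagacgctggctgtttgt

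The CArG box, found in 1.47% of 32851 RefSeq promoters of the same length, was present in 1 of the 9, Dusp5, which had adjacent matches starting 82 and 72 bases before the start. The cAMP response element, found in 1.55% of all promoters, was present in Dusp1 alone among the 9, starting 143 bases before the start. The core letters TGACG were in Dusp1, Dusp5 and Spred2, against 17.8% of all promoters. The GC box was in 7 of the 9, against 32.7%, and the E box CACGTG in Dusp1 and Dusp2, against 6.02%. Other motifs searched were TGANTCA (AP-1), CCGGAA (the ETS core) and TATAAA (the TATA box), which these 9 windows did not hold and which 6.75%, 12% and 12.4% of all promoters did. The promoter of Dusp1 had 68.4% G and C, that of Dusp2 70.4%, that of Dusp5 64.0% and that of Dusp6 56.4%, against a median of 52.4% over all promoters. A match is a description of the letters and was not tested as a binding site.

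The inducible nuclear phosphatases split into 3 high genes and 1 low gene. Dusp4, a nuclear phosphatase that acts on ERK and JNK, lies on chromosome 8 from 34807297 to 34819894 (mm10) and had 475, 44 and 342 counts in replicates 1, 2 and 3. Its level was 82.9, 124 and 61.3 TPM, a mean of 89.5 ± 32.0 (SD, n = 3), the highest of the 10 and higher than or equal to 95.4% of protein-coding genes. Replicate 2 was the highest library, and replicates 1 and 3 were both below its counting interval, from 90.3 to 167 TPM. Which library was lowest turned with the scaling: replicate 3 in TPM, and replicate 1 when TPM was scaled over genes with no overlap (211, 336 and 246). In bulk RNA a smaller share of cells with a transcript and less of it per cell cannot be told apart.

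Dusp2, a nuclear phosphatase found mainly in blood cells and induced on T-cell activation, lies on chromosome 2 from 127336159 to 127338376. It had 293, 30 and 172 counts, or 70.0, 116 and 42.2 TPM, a mean of 76.0 ± 37.2. Replicate 2 was the highest library and replicate 3 the lowest. The margin between replicates 1 and 3 depended on scaling: over genes with no overlap alone the levels were 178, 313 and 169 TPM. Dusp5, a nuclear phosphatase specific for ERK, lies on chromosome 19 from 53529109 to 53542431. It had 297, 20 and 161 counts, or 57.4, 62.6 and 32.0 TPM, a mean of 50.7 ± 16.4. Replicate 3 was the lowest for Dusp5, by a margin that depended on scaling: over genes with no overlap alone the levels were 146, 169 and 128 TPM.

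Dusp1, an immediate early phosphatase that acts mainly on p38 and JNK, was the low member of this class. It lies on chromosome 17 from 26505590 to 26508519 and had 30, 0 and 20 counts, or 5.32, 0 and 3.64 TPM, a mean of 2.99 ± 2.72. The 95% counting interval of its 0 counts in replicate 2 reaches 10.6 TPM, above both other libraries, so replicate 2 gives no order for this gene. Per length, Dusp4 was 15.6 times Dusp1 in replicate 1 and 16.8 times in replicate 3. In replicate 2 Dusp4 was 14.4 times the level of 3 counts of Dusp1, which is not a lower bound. The levels of Dusp4, Dusp2 and Dusp5 did not overlap those of Dusp1 in any library.

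Dusp6, the cytoplasmic phosphatase specific for ERK, lies on chromosome 10 from 99263231 to 99267489. It had 39, 0 and 16 counts, or 5.95, 0 and 2.51 TPM, a mean of 2.82 ± 2.99. Dusp10, a phosphatase of JNK and p38 known to restrain T-cell cytokine production, lies on chromosome 1 from 184013302 to 184075636. It had 41, 0 and 17 counts, or 6.45, 0 and 2.74 TPM, a mean of 3.06 ± 3.23. Both were higher in replicate 1 than in replicate 3, by 2.37 and 2.35 times in TPM. Scaled over genes with no overlap the gap was smaller, 15.2 against 10.1 TPM for Dusp6 and 16.4 against 11.0 for Dusp10. On the first scale the 95% counting intervals of the 0 counts of replicate 2 reach 9.12 TPM for Dusp6 and 9.39 for Dusp10. Dusp5 was 9.64 times Dusp6 in replicate 1 and 12.7 times in replicate 3. In replicate 2 Dusp5 was 8.44 times the level of 3 counts of Dusp6, again not a lower bound.

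**Figure D1:**
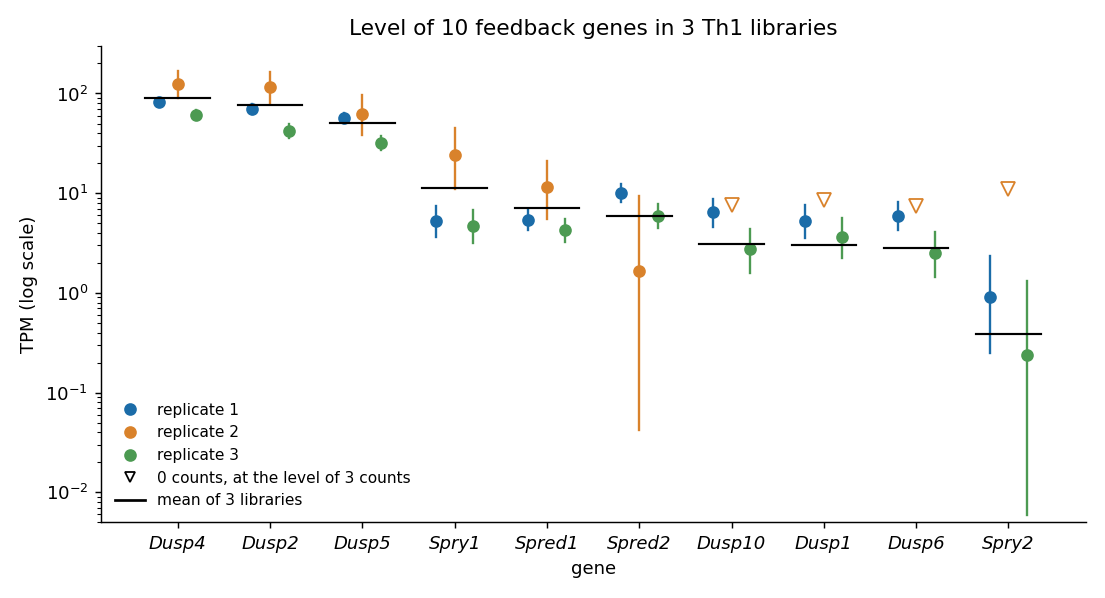
Level of each of the 10 genes in TPM on a log axis, ordered by mean; points are replicates 1, 2 and 3 with exact 95% Poisson intervals, open triangles stand at the level of 3 counts where a library had 0, and bars are means. Dusp4, Dusp2 and Dusp5 lie above all other genes in every library, and Dusp10, Dusp1, Dusp6 and Spry2 have 0 counts in replicate 2.

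The family has 10 classical phosphatases of MAP kinases, and 4 more than the 6 above were read from the same libraries. Dusp7, the cytoplasmic relative of Dusp6, had 51, 0 and 30 counts and 3.89 ± 3.66 TPM. Dusp16, a phosphatase of JNK and p38, had 80, 3 and 40 counts and 3.47 ± 1.27 TPM. Dusp9 had 4, 0 and 4 counts and Dusp8 1, 0 and 0, both below 1 TPM on average.

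Summed over the 10 phosphatases, the level was 241, 306 and 152 TPM in replicates 1, 2 and 3. The inducible nuclear class of Dusp1, Dusp2, Dusp4 and Dusp5 held 89.5%, 99.0% and 91.5% of that sum. The cytoplasmic ERK class of Dusp6, Dusp7 and Dusp9 held 5.78%, 0% and 5.01%, and the JNK and p38 class of Dusp8, Dusp10 and Dusp16 held 4.75%, 0.974% and 3.46%. In each library Dusp2, Dusp4 and Dusp5 alone made up 87.3%, 99.0% and 89.1%. The lower shares of the other classes in replicate 2 rest on 3 counts there.

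**Figure D2:**
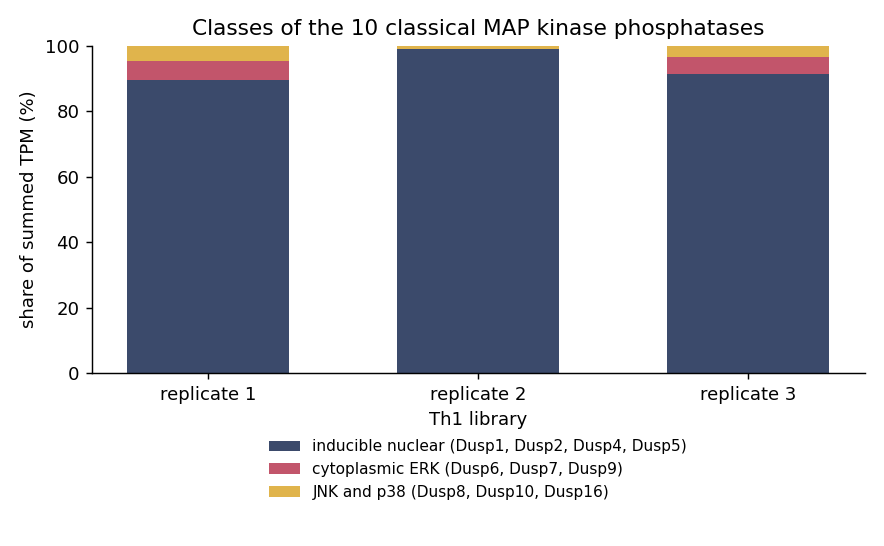
Share of the summed TPM of the 10 classical MAP kinase phosphatases held by 3 classes in each Th1 library, in percent. The inducible nuclear class takes 89.5%, 99.0% and 91.5% of the bar in replicates 1, 2 and 3.

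Among the membrane-side inhibitors, Spry1 and the 2 Spred genes were counted at a low level and Spry2 hardly at all. Spry1, an inhibitor of receptor signalling to Ras (overlapped), lies on chromosome 3 from 37639947 to 37644598. It had 32, 9 and 28 counts, or 5.27, 24.0 and 4.73 TPM, a mean of 11.3 ± 11.0, and 5.00 without replicate 2. Replicates 1 and 3 were alike and replicate 2 lay above both, with a counting interval from 11.0 to 45.5 TPM. At the rate of replicates 1 and 3, 2.13 counts were due in replicate 2.

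Spry2, a second Sprouty inhibitor of Ras signalling, lies on chromosome 14 from 105891949 to 105896819. It had 4, 0 and 1 counts, or 0.917, 0 and 0.236 TPM, a mean of 0.384 ± 0.476. Over the 3 libraries, Spry1 had 69 counts and Spry2 had 5, a per-length ratio of 9.90 with a 95% counting interval from 4.04 to 31.5. Of their relatives, Spry4 had 1, 0 and 3 counts, and Spry3 was not analysed here.

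Spred1, which binds neurofibromin and brings it to Ras, lies on chromosome 2 from 117121374 to 117182279. It had 77, 10 and 59 counts, or 5.43, 11.4 and 4.27 TPM, a mean of 7.04 ± 3.83. Spred2 lies on chromosome 11 from 19924375 to 20024026. It had 98, 1 and 56 counts, or 10.1, 1.68 and 5.95 TPM, a mean of 5.93 ± 4.24. Spred2 was the higher of the pair in replicates 1 and 3 and Spred1 in replicate 2, where 5.47 counts of Spred2 were due at the rate of the other libraries and 1 was seen. Spred3 (overlapped) had 43, 0 and 33 counts and 1.97 ± 1.74 TPM.

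In all, 9 of the 10 genes had a mean of at least 1 TPM, against 47.8% of 21764 protein-coding genes, and Spry2 was the exception. The median of the 10 means was 6.48 TPM, against 0.634 over all protein-coding genes and 12.8 over the 10408 with at least 1 TPM. By mean TPM the order was Dusp4, Dusp2, Dusp5, Spry1, Spred1, Spred2, Dusp10, Dusp1, Dusp6 and Spry2. Dusp4 exceeded Dusp2 in 3 of 3 libraries, by a mean log2 ratio of 0.29 ± 0.22 on the TPM + 1 scale, and Dusp2 exceeded Dusp5 in 3 of 3, by 0.52 ± 0.32. The step from Dusp5 to Spry1 was 2.37 ± 0.95, the only neighbouring step whose levels did not overlap across libraries. Below it several neighbouring steps were within their spread, with mean log2 ratios of 0.36 ± 0.56 for Spry1 over Spred1, 0.34 ± 1.63 for Spred1 over Spred2, -0.02 ± 0.27 for Dusp10 over Dusp1 and 0.09 ± 0.28 for Dusp1 over Dusp6. Spred2 over Dusp10 had 0.96 ± 0.42, or 0.74 over replicates 1 and 3, since replicate 2, with 1 count against 0, gives no order. Likewise, Dusp6 over Spry2 had 1.12 ± 0.99 with both at 0 counts in replicate 2. With 3 libraries a sign-flip permutation test cannot go below 0.25, so no p is given for these ratios. Without replicate 2 the places from the fourth to the sixth were taken by Spred2, Spry1 and Spred1, and the first 3 and last 4 places were as before.

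Ratios within a library were read for 11 pairs of related genes. In 7 of the 11 the sign was the same in all 3 libraries. Among the rest, Dusp6 over Dusp10 and Dusp6 over Dusp7 did not reverse. They were tied in replicate 2, with 0 counts of each gene, and a tie was not counted as the same sign. Dusp10 over Dusp16 reversed in replicate 2 on 0 against 3 counts. Dusp4 over Dusp1 had a mean log2 ratio of 4.81 ± 1.86 and Dusp2 over Dusp1 4.53 ± 2.04. Dusp5 over Dusp6, the nuclear against the cytoplasmic ERK phosphatase, had 4.10 ± 1.64. In replicate 2 these 3 ratios rest on 0 counts of the second gene, and without it they were 3.74, 3.35 and 3.15. Dusp5 was below Dusp4 by 0.52, 0.98 and 0.92 on the log2 scale in replicates 1, 2 and 3. Dusp6 and Dusp10 were close, with a mean of -0.06 ± 0.06 and both at 0 counts in replicate 2. Spry1 over Spry4 had 3.09 ± 1.36, on 69 against 4 counts in all. Without replicate 2, where Spry4 and Spry2 had 0 counts, Spry1 over Spry4 had 2.31 and Spry1 over Spry2 1.96.

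**Figure D3:**
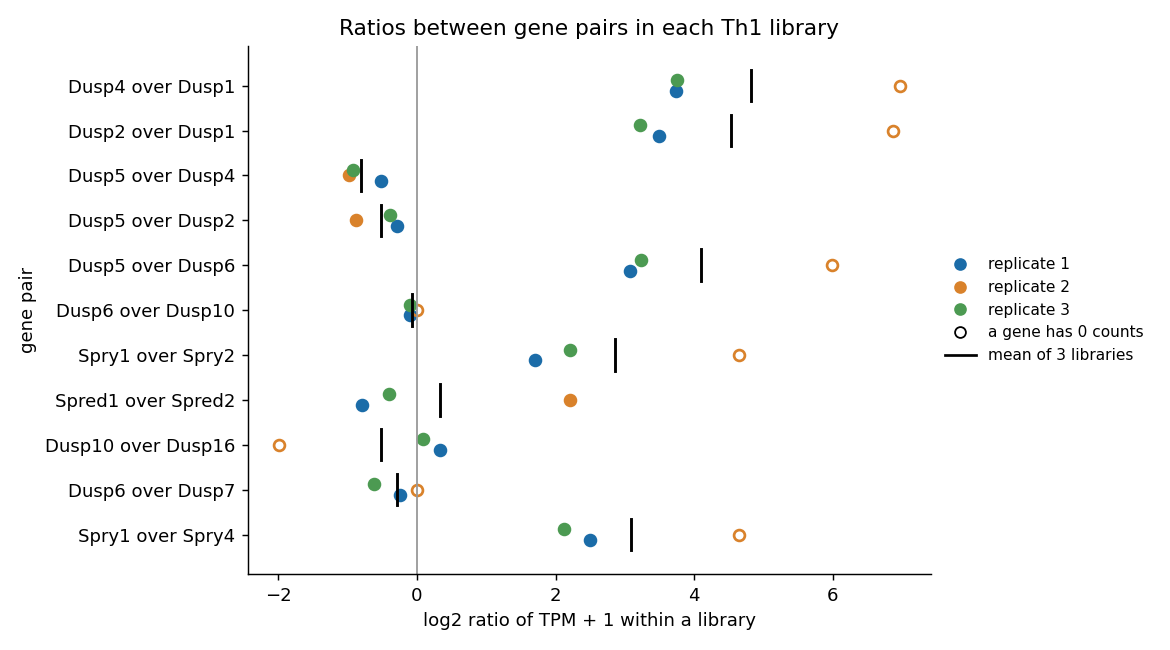
Log2 ratio of TPM + 1 within each library for 11 gene pairs; points are replicates 1, 2 and 3, open where a gene of the pair has 0 counts, and bars are means. The ratios of Dusp4 and Dusp2 over Dusp1 and of Dusp5 over Dusp6 are above 3 in every library, and Spred1 over Spred2 changes sign in replicate 2.

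The libraries are replicates of 1 group, and the next comparison asked whether any of the 10 genes differed between them beyond counting error. Among all genes with a mean count of at least 10, 32.2% were called as different (3731 of 11595, chi-square test with Benjamini-Hochberg adjustment and a ratio of at least 2), and of the 10 genes 9 could be tested and 2 were called. These were Spry1 (overlapped), whose highest library was 4.65 times its lowest (chi-square, adjusted p = 0.00017), and Dusp2, with a ratio of 2.03 (chi-square, adjusted p = 0.0028). Both were highest in replicate 2, on 9 and 30 counts. Dusp4 had a ratio of 1.53 (chi-square, adjusted p = 0.044) and Dusp5 of 1.44 (chi-square, adjusted p = 0.038), both under the ratio required. Spred1 had 2.15 (chi-square, adjusted p = 0.105), Spred2 1.98, Dusp6 1.71, Dusp10 1.69 and Dusp1 1.05, none of which passed. Spry2 had too few counts. The test holds counting error only and compares these libraries.

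Both calls rested on replicate 2. Without it 0 of 9 genes were called by the chi-square test, where 14.9% of all genes were called. Of the 9 genes, 0 had an unadjusted p under 0.05. For this and later counts at an unadjusted p, the share of all genes at that p is not given here. Without replicate 2 the ratio of Dusp2 was 1.10 and that of Spry1 1.35. The direction between replicates 1 and 3 moved with the scaling. The median gene was higher in replicate 1 than in replicate 3 by 0.17 on the log2 scale with TMM, and by 0.42 with library totals, and the difference was -0.06 with TMM over genes that had no overlap. With TMM 7 of the 10 genes were higher in replicate 1 than in replicate 3, with library totals 9 and over genes with no overlap 6. With that last scaling only genes with no overlap were tested, which leaves out Spry1, and 0 of 8 of the feedback genes were called, against 17.3% of the 6933 genes tested there. There 3 had an unadjusted p under 0.05, and Dusp2 (ratio 1.76) and Dusp4 (ratio 1.56) passed on the adjusted p but not on the ratio. With library totals 5 were called, Dusp6 (ratio 2.03), Dusp10 (2.01) and Spred1 (2.37) being added, where 35.4% of all genes were called. Without replicate 1, 2 of 7 genes tested were called (18.0% of all genes), and without replicate 3, 1 of 9 was, Spry1 (11.8%). With a minimum mean count of 100, 1 of 3 was called, Dusp2 (34.1%). On genes with no overlap and without replicate 2, 0 of 8 were called by the chi-square test (5.15% of the genes tested there), and 1, Dusp4, had an unadjusted p under 0.05.

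The biological coefficient of variation from edgeR, the spread between libraries beyond counting error, was 0.268 for Dusp5, lower than in all but 5.82% of the genes tested. It was 0.294 for Dusp4, 0.314 for Dusp2, 0.340 for Spred1, 0.388 for Dusp1, 0.411 for Spred2, 0.451 for Dusp6, 0.456 for Dusp10 and 0.567 for Spry1, against a median of 0.349 over all genes tested. Among genes with no overlap alone, an alternative chosen after the data were seen, it was 0.168 for Dusp5 (percentile 10.5), against a median of 0.267. These estimates are drawn toward a common trend and are a description.

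**Figure D4:**
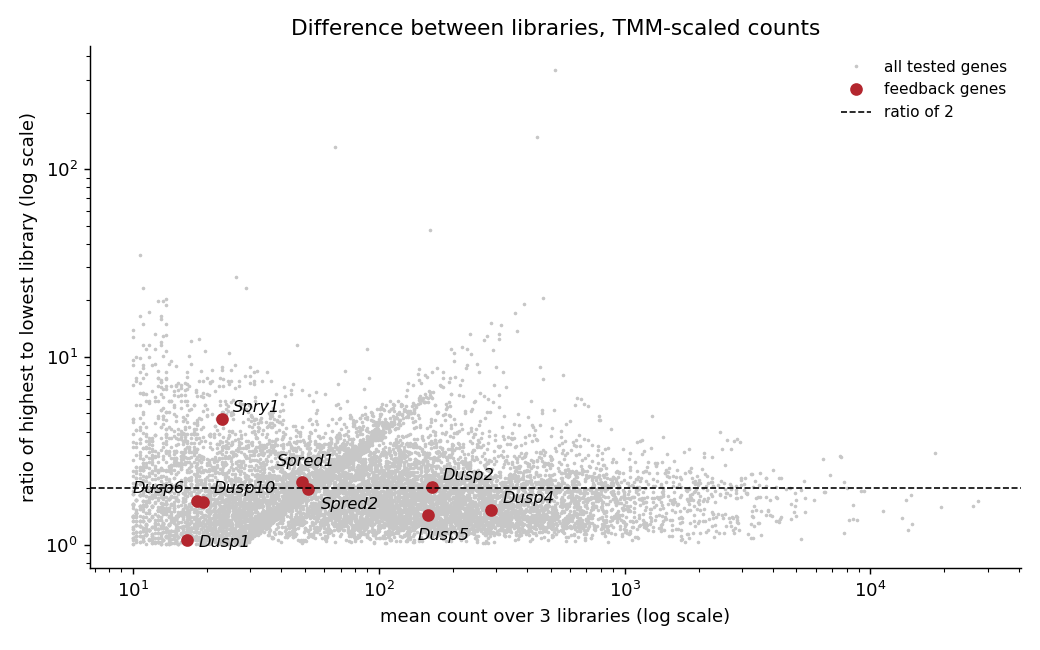
Ratio of the highest to the lowest library against the mean count, both on log axes, for all 11595 genes tested (grey) and the 9 feedback genes tested (red). Spry1 at 4.65, Spred1 at 2.15 and Dusp2 at 2.03 lie above the dashed line at a ratio of 2, and Dusp4 and Dusp5 lie below it.

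The other genes of the pathway were read from 7 lists, of which 57 of 64 genes had a mean of at least 1 TPM. All 16 genes of the Ras to ERK cascade did, with a median of 23.0 TPM. The adaptor Grb2 was highest at 64.8 ± 33.6 TPM, and Map2k1, which encodes the ERK kinase MEK1, had 26.9 ± 13.8. Grb2 had 65.3, 98.2 and 31.0 TPM in replicates 1, 2 and 3, below Dusp4 and Dusp2 in each of the 3 libraries. In this list 5 of 16 genes were called as different between libraries, near the 32.2% of all genes tested, led by Araf (overlapped, ratio 3.05) and Map2k1 (2.94), and 0 of 16 were called without replicate 2 (chi-square test; 14.9% of all genes), where 6 had an unadjusted p under 0.05.

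All 5 genes of Ras GTPase-activating proteins reached 1 TPM, with a median of 5.91. Rasal3, found mainly in blood cells, was highest at 55.5 ± 28.3 TPM, with Rasa1 (overlapped) at 7.51 ± 1.43, Rasa2 at 5.91 ± 1.99, the Spred partner Nf1 at 2.05 ± 1.05 and Rasa3 at 1.62, with 25, 0 and 26 counts. In this list 0 of 5 genes were called by the chi-square test, with or without replicate 2 (32.2% and 14.9% of all genes), and 1 (with) and 0 (without) had an unadjusted p under 0.05. Rasal3 had a ratio of 1.99 there (chi-square, adjusted p = 3.3e-05).

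Of the 15 genes of the JNK and p38 cascades 14 reached 1 TPM, with a median of 12.3. The p38 target kinase Mapkapk2 was highest at 93.4 ± 42.2 TPM, followed by the p38 activator Map2k3 at 47.6 ± 38.2, the upstream kinase Map3k7 at 27.4 ± 6.19, the p38 kinase Mapk11 at 22.9 ± 10.1 and the JNK activator Map2k7 at 20.2 ± 6.00. The mean of Map2k3 was 25.9 without replicate 2, where it had 39 counts. In this list 8 of 13 genes tested were called, against 32.2% of all genes, led by Mapkapk3 (ratio 5.06) and Map2k3 (3.41), and 1 of 14 without replicate 2 (14.9% of all genes), Map2k6, a gene named after its value was seen.

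Immediate early and ERK-responsive genes had 12 of 13 members at 1 TPM or more and a median of 14.4. Myc was highest at 183 ± 60.1 TPM, followed by Ier2 at 60.2 ± 31.4, Ier3 at 17.5 ± 15.5, the AP-1 gene Fosl1 at 17.1 ± 4.84 and Fosl2 at 16.2 ± 6.29. In this list 4 of 10 genes tested were called, against 32.2% of all genes, led by the ETS factor Etv4 (ratio 3.36) and Ier2 (2.63), and 1 of 12 without replicate 2 (14.9% of all genes), Fos, likewise named after its value was seen. The atypical dual-specificity phosphatases, relatives that lack the docking domain of the MAP kinase phosphatases, had 7 of 9 members at 1 TPM or more and a median of 4.82. Dusp11 (overlapped) was highest at 17.7 ± 3.32 TPM, followed by Dusp19 at 10.3 ± 7.13, Dusp3 (overlapped) at 8.16 ± 5.93, Dusp22 at 8.02 ± 8.55 and Dusp12 (overlapped) at 4.82 ± 0.719. Of 6 tested, Dusp19 (ratio 3.25) and Dusp3 (2.99) were called, a share near the 32.2% of all genes, and without replicate 2 the chi-square test called 0 of 7 (14.9% of all genes), with 1 at an unadjusted p under 0.05.

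**Figure D5:**
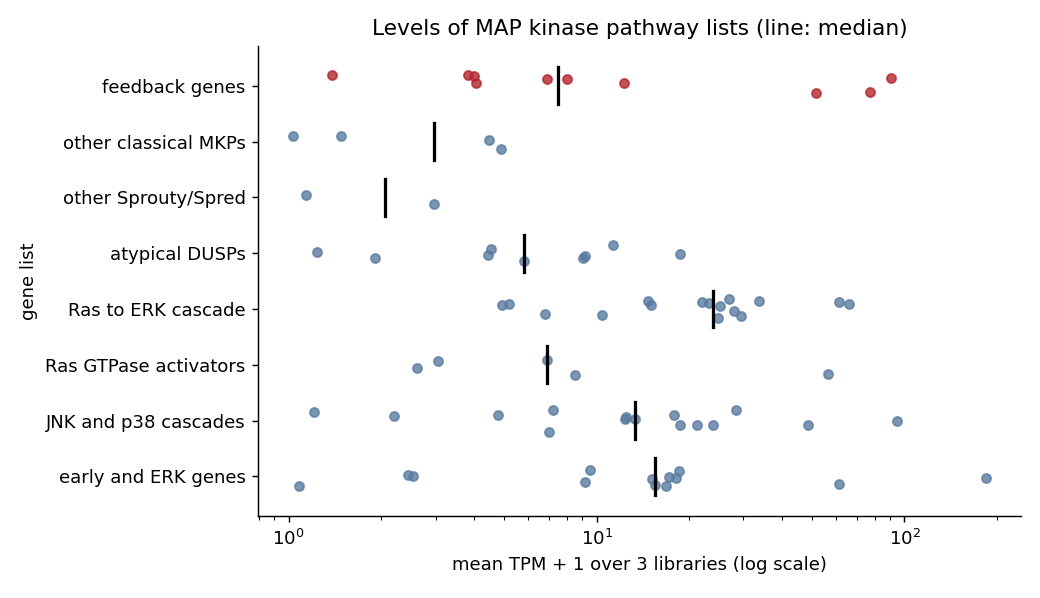
Mean TPM + 1 over 3 libraries on a log axis for the 10 feedback genes (red) and 7 lists of the pathway (blue), 1 point a gene, with the median of each list as a bar. The feedback genes fall into 3 high genes at 50.7 TPM or more and 7 genes at 11.3 TPM or less.

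Among the listed genes facing an exon on the other strand, the gene on that strand often had more counts per base. Apart from Spry1, 15 genes of the pathway and marker lists faced 17 genes, and in 11 of the 17 pairs the facing gene was denser in all 3 libraries. Density was taken over whole genes, not over the facing bases alone. The share of such pairs among all overlapped genes is not given here. Dusp3 had 58, 9 and 35 counts over 4682 bases, and Gm20659, whose 604 bases all lie opposite to Dusp3 exons, had 138, 12 and 161. This pair and the next were chosen after their values were seen. Dusp12 had 26, 2 and 24 counts, and Gm9929, with 891 bases facing it, had 363, 28 and 493. For Spry1, the facing Gm42922 was denser in replicates 1 and 3 and Spry1 in replicate 2. For the 9 genes of the set with no overlap no such pair exists, and scaled over genes with no overlap alone Dusp4 had 211, 336 and 246 TPM, Dusp2 178, 313 and 169, and Dusp5 146, 169 and 128 in replicates 1, 2 and 3.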

How the data were processed

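RNA of 3 Th1 libraries was analysed from the raw counts that the authors deposited. Per the file headers these were made with featureCounts 1.4.6-p4 and GENCODE mouse release 13 on mm10 (fragments with both ends mapped, exons summed by gene, strand setting 1). No source used here gives the aligner's version.

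Symbols were looked up in GENCODE release 21 by identifier without version, and 50376 of 50600 genes matched. A gene counts as overlapped if at least 1 of its exon bases is also exonic in an opposite-strand gene. TPM was computed from the counts and exon lengths, and log2 ratios used TPM + 1. Of the value columns in the files, 0 were left unused.

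Differences between libraries were tested for every gene with a mean count of at least 10 by a chi-square test on the counts, with library sizes scaled by TMM (edgeR 4.0.16) and Benjamini-Hochberg adjustment over all 11595 genes tested. A call needed an adjusted p under 0.05 and a highest library at least 2 times the lowest, where a library below 3 counts was set to 3. The test was checked on simulated counts with counting error only, changes in replicate 3 and library totals as the scale. This check does not cover calls that rest on replicate 2. Alternatives were DESeq2 1.42.0 size factors, library totals, other count minimums, scaling over genes with no overlap, and leaving out each replicate. R 4.3.3, Python 3.11.15 and SciPy 1.17.1 were used. Intervals are exact Poisson intervals at 95%; they cover counting error alone, as PCR copies are not separate molecules.

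The rule for named genes took the 10 genes, genes facing them on the other strand, gene pairs, all genes of the small family and marker lists, 2 mitochondrial genes as strand checks, and in each pathway list the 5 highest, those at 0 and the 2 with the largest ratio among those called. Members, lists and pairs were chosen with earlier results of these data known. Some genes that the rule takes are not reported here, though list counts include them.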

Additional observations from a re-analysis of the deposited data

How the results depend on the processing

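The median level of the 10 genes, 6.48 TPM, was 18.1 TPM over the 9 genes scaled with genes that have no overlap, 5.35 with medians over libraries, 14.7 in TMM-scaled CPM, which is not divided by length, and from 4.92 to 7.17 when 1 replicate was left out. The count of all genes called, 3731, was 1750 of 5137 where the mean count had to reach 100, 1201 of 6933 for genes free of overlap, and from 1332 to 1941 without 1 replicate. It was 382 of 7414 on genes with no overlap without replicate 2, a choice made after the data were seen. Of the 10 genes, 2 were called, against 5 with library totals, 1 of 3 tested at a mean count of at least 100, 0 on genes with no overlap, also when replicate 2 was left out, and from 0 to 2 without 1 replicate. Dusp2 was not called without replicate 3 (ratio 1.69; chi-square, adjusted p = 0.035), and Spry1 was not called without replicate 2. The count of pairs with the same sign in every library, 7 of 11, was 11 when replicate 2 was left out. The number of genes at 1 TPM or more, 9, was 6 at 5 TPM or more and 9 without any 1 replicate. The causes were not tested. No paired analysis was possible because the 3 libraries form a single group. Replicate 2 limits what can be said of the 5 genes with 0 or 1 counts there.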
